A study of Danio rerio with 10 samples.

Results

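The genes described here are the antioxidant and glutathione genes of zebrafish muscle. They were chosen by their symbols in the deposited tables, which had to begin with or equal sod1 to sod3, cat, gpx, prdx1 to prdx6, txn, txn2, txnrd, glrx, gst, gclc, gclm, gsr, gss, nqo1, hmox1, srxn1, msra, msrb, keap1 or nfe2l2. The symbols matched 53 of the 17373 genes listed, of which 29 are one-to-one orthologues of a human gene and are given for every treatment, while 24 belong to other homology types (duplicated or many-copy genes) and are given for torpor only. Of the 29, 23 had a mean normalized count over all fish (baseMean) of at least 10. The other 6, gpx7, gpx9, gss, gstcd, srxn1 and a gene named msrb1b, were below it. That msrb1b is paired in the tables with human MEIOB, which is not a methionine sulfoxide reductase, and 1 more thioredoxin, written TXN in capitals, was not matched.

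Muscle RNA of 10 adult zebrafish of the AB strain was sequenced after an experiment of 10 days. The Control group (2 fish) was kept at 28.5 °C without melatonin or radiation, and the Radiation group (3 fish) at the same temperature received a whole-body dose of 32.64 cGy according to the sample labels and 32.68 cGy according to the treatment description. The Torpor group (2 fish) was acclimated slowly to 18.5 °C and then given 24 µM melatonin, and the Torpor+radiation group (3 fish) received cold, melatonin and the same radiation. Tricaine anaesthesia is described for the irradiated fish and for no other group, so radiation and anaesthesia cannot be told apart. Cold and melatonin were given together to both torpor groups and cannot be told apart. Fish codes begin with F for 2 Control, 3 Radiation and 1 Torpor+radiation fish and with M for 2 Torpor and 2 Torpor+radiation fish. The letters are not explained, and in Torpor against Control they cannot be told apart from the treatment. They are also uneven between Radiation and Torpor+radiation, and their part in any comparison was not tested.

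Cells of working muscle make superoxide as a by-product of mitochondrial respiration. Superoxide dismutases turn it into hydrogen peroxide, which catalase, glutathione peroxidases and peroxiredoxins then remove. Peroxiredoxins are recharged by thioredoxins, and glutathione peroxidases and glutaredoxins by glutathione, a small thiol made by glutamate-cysteine ligase and glutathione synthetase. In vertebrates the transcription factor Nrf2, which Keap1 holds down in unstressed cells, drives many of these genes.

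The tables give a fold change with its standard error for each treated group against Control and hold no value per fish. The level of each group was therefore worked out by solving for it from its fold change, baseMean and the number of fish per group, and it cannot be said whether single fish of 2 groups overlapped. A normalized count is a read count divided by a size factor of its library and is not corrected for gene length, so levels are compared between groups of fish and not between genes. The labels state a minimum depth of 50000000 reads for every library, and the depth of each is not known here. Precision is given by the standard errors (SE). On the log2 scale their medians over the 23 one-to-one members were 0.35 for radiation, 0.37 for torpor and 0.33 for torpor with radiation. Over all one-to-one genes with baseMean of at least 10 they were larger, at 0.43, 0.46 and 0.43. Shares of members and of all genes called are therefore not set side by side at equal precision. The median gene with baseMean of at least 50 stood at 0.11, 0.10 and 0.15 in these comparisons, and members are to be read against it. The extraction text of the labels names liver, while the tissue label names muscle. The 4 one-to-one fast muscle markers summed to between 33060 and 47841 normalized counts per group, mostly ldb3b, and the 8 one-to-one liver markers to between 4906 and 6167, nearly all of it rbp4. Next came tfa, at 11.6 in Control, 45.3 in Radiation, 48.5 in Torpor and 24.9 in Torpor+radiation, while fgb, fgg, ambp, ahsg2, cp and rbp2b were between 0.06 and 3.27. The 7 liver markers of other homology types, with a baseMean of at most 14.3, had a median torpor difference of 2.38 on the log2 scale and none was called. Markers of oocytes stood apart in the Control group. The 8 one-to-one oocyte markers, none of them at 0 in baseMean, summed to 475 normalized counts in Control, 17.1 in Radiation, 15.3 in Torpor and 6.99 in Torpor+radiation. All comparisons with Control carry this difference, and its part in the values of the antioxidant genes was not tested. In bulk muscle, fewer cells of a type and less RNA per cell cannot be told apart.

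To define how radiation without cold and melatonin bore on these genes, Radiation was compared with Control. No antioxidant or glutathione gene passed the test. The authors' threshold for this comparison was a deposited DESeq2 adjusted p of at most 0.4. At it 0 of 27 tested members were called, where 1.96% of all tested one-to-one genes were called in either direction. An unadjusted DESeq2 p of at most 0.05 was held by 1 member and by 381 of all 7616 tested genes. The median log2 difference of the 23 members was 0.20, against 0.05 over all 6504 one-to-one genes with baseMean of at least 10. Above 0 lay 15 of the 23 and 3620 of the 6504. The member with the smallest p was gpx8, a peroxidase of the endoplasmic reticulum. Its level was 29.3 normalized counts in Control, 9.20 in Radiation, 44.6 in Torpor and 24.7 in Torpor+radiation, lowest in the irradiated fish kept warm. The log2 difference of Radiation from Control was -1.67 (SE 0.67, adjusted p = 0.42). All 4 genes of the Nrf2 system lay above 0 after radiation, between 0.44 and 0.60 on the log2 scale, none of them called. This was not particular to radiation. In Torpor all 4 also lay above 0, between 0.05 and 1.27, and in Torpor+radiation 3 did, again with none called against Control. nfe2l2a, which encodes Nrf2, was 247 in Control and 353 in Radiation, a log2 difference of 0.51 with a 95% interval (normal distribution) from -0.12 to 1.15. For sod1 the interval ran from -0.61 to 0.35, for sod2 from -0.37 to 0.77, and for gpx4b from -0.73 to 0.15, so a 2-fold change of these 3 genes in either direction lies outside their intervals.

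**Figure D1:**
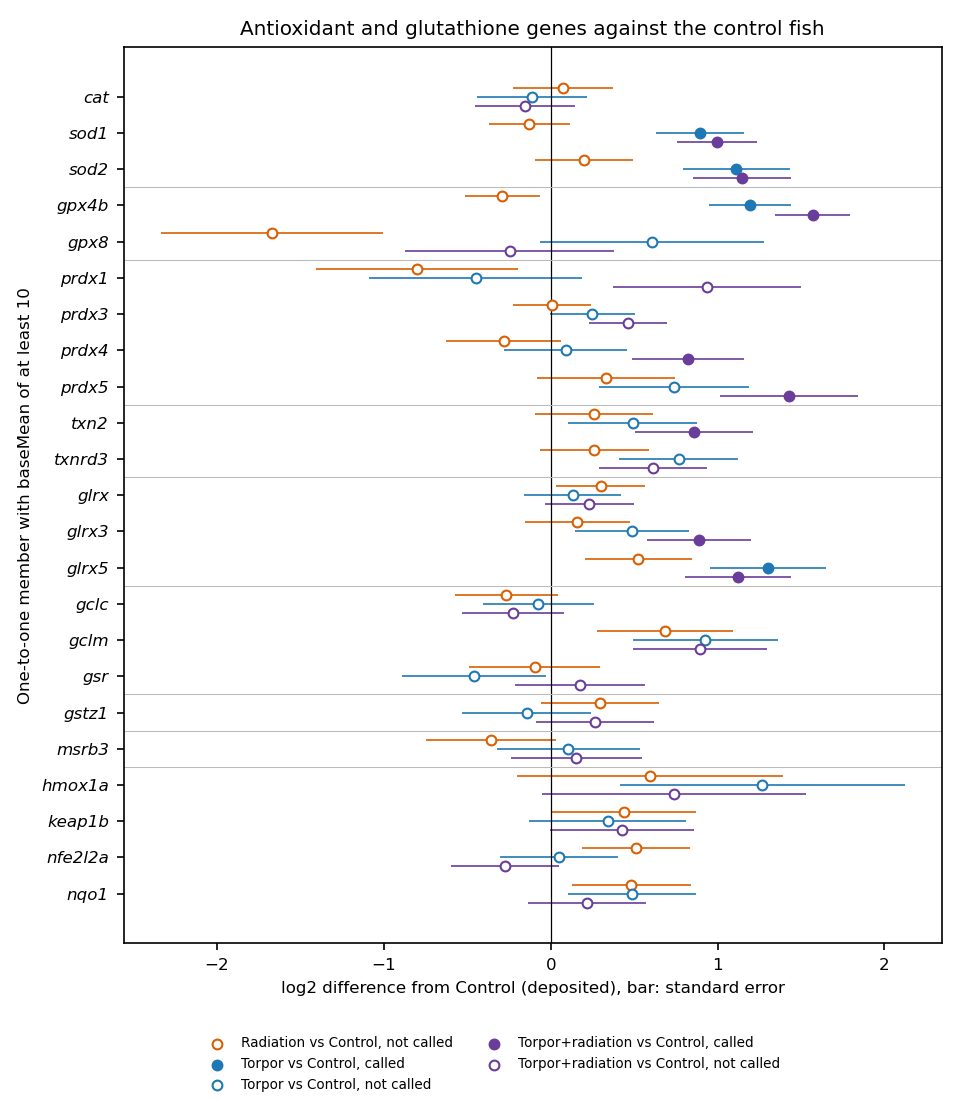
Log2 difference of each treated group from Control for the 23 one-to-one antioxidant and glutathione genes with baseMean of at least 10, as deposited, with bars of 1 standard error. Filled points passed the threshold of the comparison. Superoxide dismutases, gpx4b and glrx5 are filled in both torpor groups, and no point of Radiation is filled.

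To determine how induced torpor bore on the same genes, Torpor was compared with Control. In torpid muscle both superoxide dismutases of the cytosol and the mitochondria, the lipid peroxidase gpx4b and the mitochondrial glutaredoxin glrx5 were between 1.86- and 2.46-fold higher. At a deposited adjusted p of at most 0.1, 4 of 26 tested one-to-one members were higher and 0 were lower, and 6 had an unadjusted p of at most 0.05. Of all tested one-to-one genes 6.63% were called higher and 3.83% lower, and 1413 of 7069 had an unadjusted DESeq2 p of at most 0.05. The median of the 23 members was 0.49 on the log2 scale, against 0.05 over all 6504 one-to-one genes with baseMean of at least 10. Above 0 lay 18 of the 23 and 3428 of the 6504. When radiation was added, 8 of 25 tested members were higher than in Control and 0 lower, with 9.09% and 6.43% of all tested genes called in these directions. The median of the members was 0.61 against 0.09 over all genes, with 19 of 23 above 0, beside 3567 of the 6504. Markers of fast muscle itself also differed in torpor. Of 17 such markers of other homology types, 7 were called lower, among them ckmb (-0.86, SE 0.23), mylz3 (-1.17, SE 0.32) and actn3b (-1.25, SE 0.38), and 1 higher, atp2a1 (1.24, SE 0.45), with a median of -0.56 over the 17. Of the 4 one-to-one markers, myod1 (1.35, SE 0.36) and tcap (1.88, SE 0.50) were called higher. The part of these shifts and of the liver markers in the antioxidant values was not tested. Torpor+radiation and Torpor share the Control fish, so these counts are not independent of each other.

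A pair of groups that holds no Control fish, Torpor+radiation against Radiation, was compared to see the same step among irradiated fish. By a Wald test on the recovered means and dispersions, 7 of 23 members passed an adjusted p of 0.1 as higher and 1 as lower, against 9.15% and 6.98% of all genes. The median of the members was 0.46, against 0.06 over all genes. Here the oocyte markers summed to 6.99 normalized counts in Torpor+radiation and 17.1 in Radiation. The fish codes were uneven in this pair too, with F for 3 Radiation fish and F for 1 and M for 2 Torpor+radiation fish. Of the 23 members, 14 (60.9%) lay above 0 in both torpor pairs, which share no fish, as did 40.1% of all genes. The share with the same sign in both pairs was 69.6% of members and 73.6% of all genes.

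**Figure D2:**
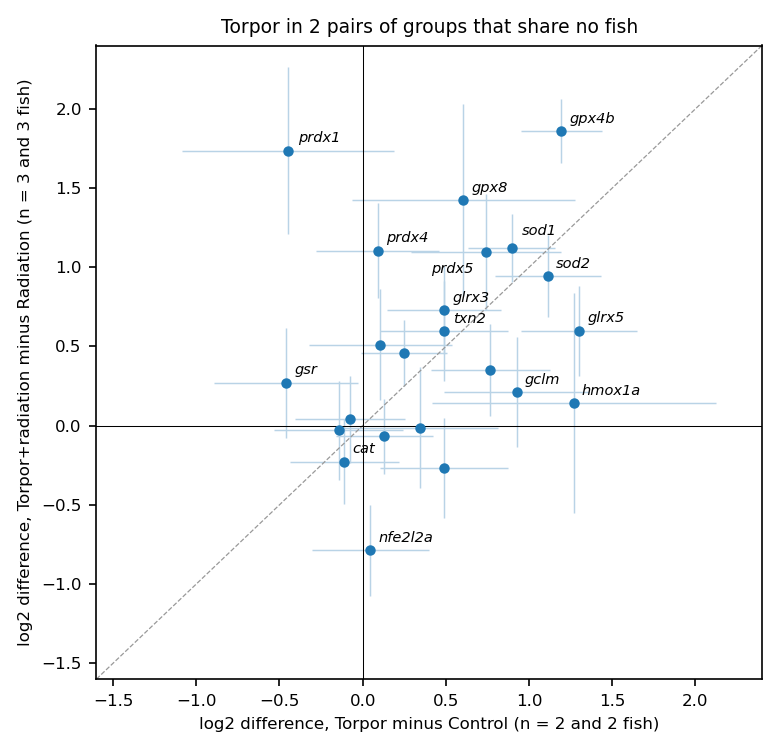
Log2 difference of Torpor from Control (horizontal) and of Torpor+radiation from Radiation (vertical) for the 23 one-to-one members, with bars of 1 standard error and a dashed line of equality. gpx4b, sod1, sod2 and glrx5 lie at the upper right, prdx1 is above 0 only on the vertical axis, and nfe2l2a lies below 0 on it.

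The superoxide dismutases were higher wherever fish were cold and melatonin-treated. sod1, the copper-zinc enzyme of the cytosol, was 229 normalized counts in Control, 209 in Radiation, 425 in Torpor and 455 in Torpor+radiation. Both warm groups were low and both torpor groups high. Torpor was 1.86-fold above Control (log2 0.89, SE 0.26, adjusted p = 0.014) and Torpor+radiation was 2.18-fold above Radiation (log2 1.12, SE 0.21, adjusted p = 1.5e-05). sod2, the manganese enzyme of the mitochondrial matrix, was 1081 in Control, 1241 in Radiation, 2337 in Torpor and 2390 in Torpor+radiation. This was the same order of warm and cold groups, with a log2 difference of 1.11 (SE 0.32, adjusted p = 0.012) for Torpor against Control and of 0.95 (SE 0.26, adjusted p = 0.0056) among irradiated fish. Against Control, Torpor+radiation was 1.99-fold higher for sod1 (adjusted p = 0.0013) and 2.21-fold for sod2 (adjusted p = 0.0027). Catalase, which removes hydrogen peroxide in peroxisomes, was not called in any comparison. Its gene cat was 639 in Control, 672 in Radiation, 592 in Torpor and 574 in Torpor+radiation. The 95% interval of Torpor against Control ran from -0.75 to 0.53 on the log2 scale.

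Among glutathione peroxidases, gpx4b had the smallest torpor p of the one-to-one members. It is a copy of GPX4, the selenoenzyme that reduces lipid hydroperoxides within membranes. The level was 570 normalized counts in Control, 466 in Radiation, 1302 in Torpor and 1691 in Torpor+radiation. Both torpor groups stood above both warm groups. The log2 difference was 1.19 (SE 0.24, adjusted p = 1.0e-04) for Torpor and 1.57 (SE 0.22, adjusted p = 9.8e-10) for Torpor+radiation against Control, and 1.86 (SE 0.20, adjusted p = 1.9e-17) for Torpor+radiation against Radiation, a 3.63-fold step. gpx8 was 2.68-fold higher in Torpor+radiation than in Radiation (adjusted p = 0.11) and was not called. gpx7, another peroxidase of the endoplasmic reticulum, was at 5.75 in Control, 7.03 in Radiation, 5.67 in Torpor and 14.0 in Torpor+radiation, and gpx9 was under 3 in every group.

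**Figure D3:**
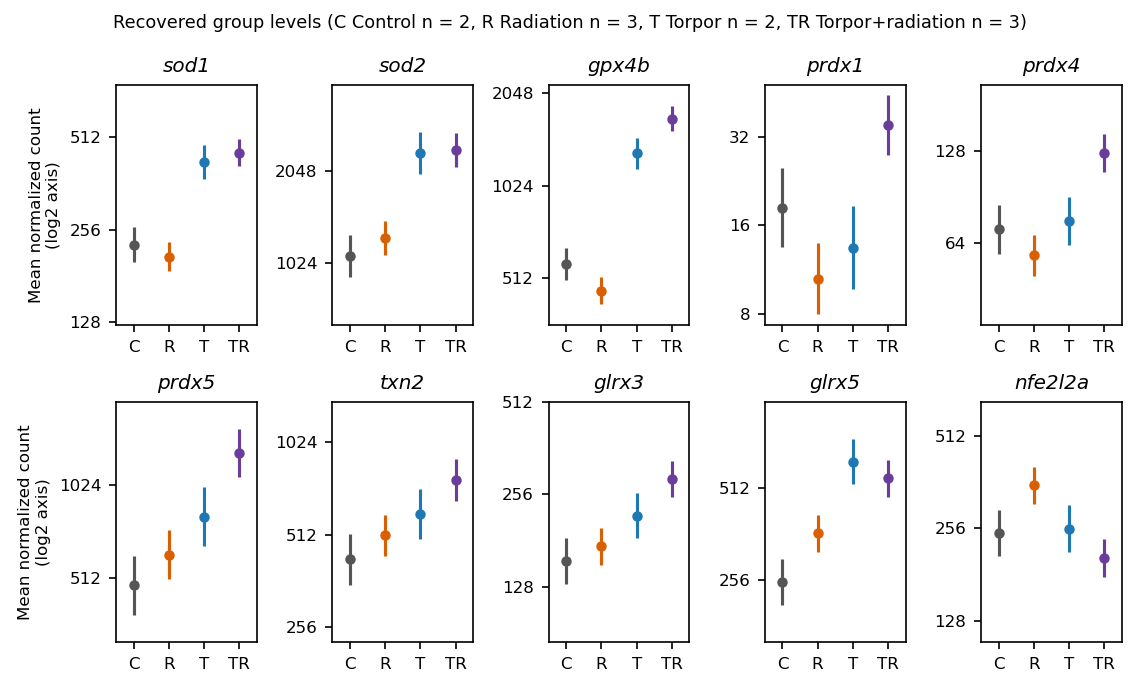
Recovered mean normalized count (log2 axis) of each group for the 10 one-to-one members called in any comparison, with bars of 1 standard error from the fitted dispersion. sod1, sod2, gpx4b and glrx5 are high in both torpor groups, while prdx1 and prdx4 are high in Torpor+radiation and nfe2l2a is high in Radiation.

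The peroxiredoxins, thiol peroxidases that differ in their place in the cell, were highest in Torpor+radiation. prdx5, found in mitochondria, peroxisomes and cytosol, was 483 normalized counts in Control, 608 in Radiation, 806 in Torpor and 1299.7 in Torpor+radiation. The last group passed the test against both warm groups, with a log2 difference of 1.43 (SE 0.41, adjusted p = 0.010) from Control and a 2.14-fold difference (SE 0.37 on the log2 scale, adjusted p = 0.031) from Radiation, while Torpor itself differed from Control by 0.74 (SE 0.45, adjusted p = 0.36) and Torpor+radiation from Torpor by 0.69 (SE 0.41), neither of them called. prdx4, the peroxiredoxin of the endoplasmic reticulum, was 71.1 in Control, 58.5 in Radiation, 75.7 in Torpor and 126 in Torpor+radiation. The first 3 groups lay close together and the last above them, by 0.82 over Control (SE 0.33, adjusted p = 0.092) and by 1.11 over Radiation (SE 0.30, adjusted p = 0.0048). The step from Torpor to Torpor+radiation was 0.73 (SE 0.33, adjusted p = 0.9997 by the Wald test) and was not called. prdx1, a cytosolic peroxiredoxin, was at 18.3 in Control, 10.5 in Radiation, 13.4 in Torpor and 35.0 in Torpor+radiation. It was called only against Radiation, where it was 3.33-fold higher (log2 1.74, SE 0.53, adjusted p = 0.014). prdx3, the mitochondrial peroxiredoxin, was 771 in Control, 775 in Radiation, 916 in Torpor and 1064 in Torpor+radiation. It passed no test, with log2 differences from Control of 0.01 after radiation, 0.25 in torpor and 0.47 with both (adjusted p = 0.20 for the last). Sulfiredoxin (srxn1), which repairs over-oxidised peroxiredoxins, was between 1.04 and 3.69 in the 4 groups.

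Among thioredoxins and their reductases, txn2, the mitochondrial thioredoxin, was 426 normalized counts in Control, 510 in Radiation, 598 in Torpor and 771 in Torpor+radiation. Of the comparisons between 2 groups it was called in Torpor+radiation against Control alone, at a log2 difference of 0.86 (SE 0.35, adjusted p = 0.097). The reductase gene txnrd3 was 478 in Control, 573 in Radiation, 815 in Torpor and 731 in Torpor+radiation. Torpor differed from Control by 0.77 (SE 0.36, unadjusted p = 0.031, adjusted p = 0.19 in DESeq2), short of the threshold.

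Glutaredoxins, which use glutathione, included a pair known for handling iron-sulfur clusters. glrx5, which passes clusters on within mitochondria, was 253 normalized counts in Control, 363 in Radiation, 622 in Torpor and 550 in Torpor+radiation. Torpor was 2.46-fold above Control (log2 1.30, SE 0.35, adjusted p = 0.0063) and Torpor+radiation 2.18-fold (log2 1.12, SE 0.32, adjusted p = 0.0087). Radiation fish stood 0.52 above Control (SE 0.32, not called), and the step from Radiation to Torpor+radiation was smaller, at 0.60 (SE 0.28, adjusted p = 0.16). glrx3, its cytosolic counterpart, was 156 in Control, 174 in Radiation, 218 in Torpor and 288 in Torpor+radiation. The last group was called against Control (log2 0.89, SE 0.31, adjusted p = 0.043) and against Radiation (log2 0.73, SE 0.28, adjusted p = 0.064). The other glutaredoxin, glrx, lay between 212 and 261 in all groups and was not called.

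Genes that make and recharge glutathione passed no test. gclm, the regulatory subunit of glutamate-cysteine ligase, was 30.6 normalized counts in Control, 49.0 in Radiation, 58.0 in Torpor and 56.8 in Torpor+radiation. Control was lower than the other 3 groups, by 0.68 for Radiation (SE 0.41, adjusted p = 0.95), 0.92 for Torpor (SE 0.43, adjusted p = 0.19) and 0.89 for Torpor+radiation (SE 0.40, adjusted p = 0.14). The catalytic subunit gclc lay between 171 and 206 and glutathione reductase, gsr, between 35.4 and 55.0. Glutathione synthetase, gss, was between 1.78 and 5.98. Of the one-to-one glutathione S-transferases, gstz1, which also isomerises maleylacetoacetate in tyrosine breakdown, lay between 80.1 and 109, and gstcd between 5.57 and 13.3, with log2 differences from Control of 0.10 after radiation, -0.57 in torpor and 0.68 with both. The methionine sulfoxide reductase msrb3 was 1201 in Control, 938 in Radiation, 1293 in Torpor and 1336 in Torpor+radiation, the largest step being 0.51 between both irradiated groups (SE 0.35, adjusted p = 0.38). The gene named msrb1b and paired with MEIOB was at 2.22, 2.09, 10.4 and 8.61 in the same order of groups, with a torpor difference of 2.23 (SE 1.27, adjusted p = 0.32).

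Of the Nrf2 system, only nfe2l2a was called. Its level was 247 normalized counts in Control, 353 in Radiation, 255 in Torpor and 204 in Torpor+radiation, highest in the warm irradiated fish and lowest in the cold irradiated ones. Torpor+radiation was lower than Radiation by a log2 difference of -0.79 (SE 0.29, adjusted p = 0.054), and it was the 1 member called lower in any comparison. The 7 one-to-one leukocyte markers summed to 574 normalized counts in Control, 726 in Radiation, 453 in Torpor and 567 in Torpor+radiation. The largest part in each group was itgb2, at 331, 295, 268 and 273 in that order. From Radiation to Torpor+radiation, lcp1 went from 176 to 87.4 and spi1b from 91.4 to 53.3, and coro1a and mpx were also lower. rac2 went the other way, from 71.6 to 82.9, and tyrobp was under 3 in all groups. The part of these markers in the nfe2l2a difference was not tested. keap1b, the Nrf2 inhibitor, was 126 in Control and between 160 and 171 in the other groups. nqo1, a quinone reductase and Nrf2 target, was 73.1 in Control, 102 in Radiation, 102 in Torpor and 84.9 in Torpor+radiation. hmox1a, a haem oxygenase, was 14.4, 21.7, 34.6 and 24.0 in the same order, with a torpor difference of 1.27 (SE 0.85, adjusted p = 0.43). Neither gene was called.

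To ask whether radiation acted on torpid fish, Torpor+radiation was compared with Torpor. By the Wald test 0 of 23 members were called at an adjusted p of at most 0.1, where 0.215% of all genes were. By the same test 272 of all 6504 genes had an unadjusted p under 0.05, and so had 2 members. These were prdx1, at 13.4 normalized counts in Torpor and 35.0 in Torpor+radiation (log2 1.38, SE 0.58, adjusted p = 0.97), and prdx4, at 75.7 and 126 (log2 0.73, SE 0.33, unadjusted p = 0.027 and adjusted p = 0.9997 by the Wald test). The median of the members was 0.08. For sod2 the 95% interval of the difference ran from -0.54 to 0.60, for sod1 from -0.36 to 0.56 and for glrx5 from -0.80 to 0.44.

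The radiation by torpor interaction tests whether the response to radiation differed between warm and torpid fish. It was called for 0 of 23 members, against 0.461% of all genes. By the Wald test 3 members had an unadjusted p under 0.05, beside 317 of all 6504 genes. prdx1 lay at -0.80 after radiation in warm fish and 1.38 in torpid fish, an interaction of 2.19 (SE 0.83, adjusted p = 0.56). For prdx4 the interaction was 1.01 (SE 0.48, adjusted p = 0.91) and for gpx4b 0.67 (SE 0.32, adjusted p = 0.92). Of the 23 members, 10 had the same sign after radiation in both temperatures (43.5%), as had 49.6% of all genes.

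Copies of the members with other homology types were given for Torpor against Control alone. Of 19 tested, 7 were higher and 0 lower, while 5.36% of tested genes of such types were called higher and 6.39% lower. With the one-to-one members, 11 of 45 tested genes were higher and 0 lower. Of all 11529 tested genes of every type, 708 were called higher and 556 lower. Levels per group could not be recovered for these genes, and baseMean is given instead. The kappa class of glutathione S-transferases, enzymes of mitochondria and peroxisomes, held the largest differences. A gene named gstk4 with baseMean 3951 differed by 3.30 (SE 1.01, adjusted p = 0.021), another gene of that name with baseMean 151 by 3.38 (SE 0.65, adjusted p = 2.8e-05), and gstk1 with baseMean 2732 by 1.43 (SE 0.26, adjusted p = 1.0e-05). In the RefSeq annotation of assembly GRCz12tu gstk4 lies within the span of gstk1. Reads may therefore be split among these genes, and their separate values are uncertain. The 7 called copies and the 11 called members count gstk1 and both gstk4 genes separately, so these calls may not be independent. gstk2, the remaining kappa gene, differed by 1.40 (SE 1.05, adjusted p = 0.49) and was not called.

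**Figure D4:**
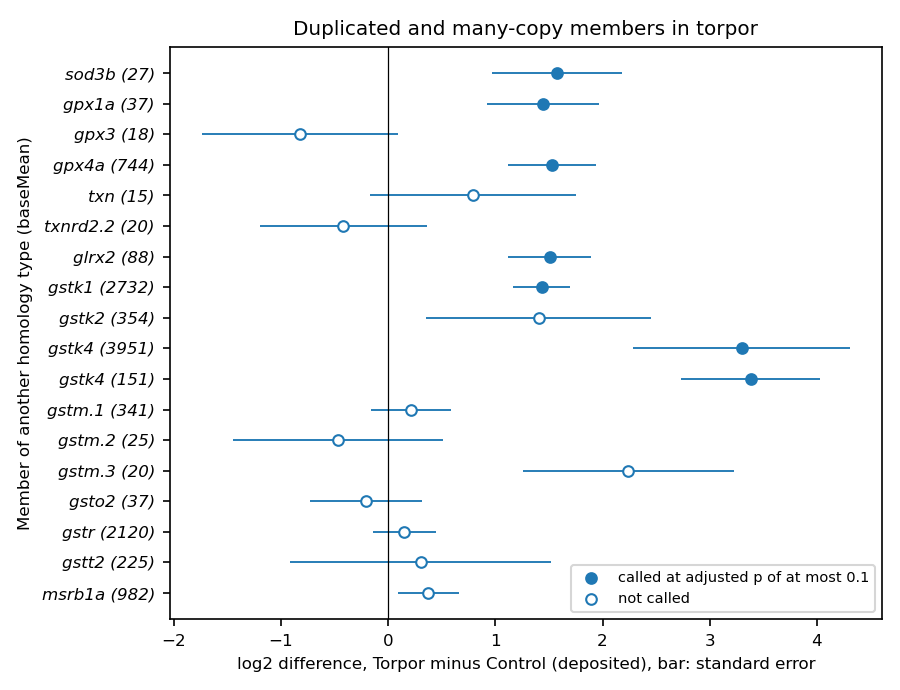
Log2 difference of Torpor from Control for the 18 members of other homology types with baseMean of at least 10 (baseMean in parentheses), as deposited, with bars of 1 standard error. The 7 filled points, all right of 0, are sod3b, gpx1a, gpx4a, glrx2, gstk1 and both genes named gstk4.

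Among the peroxidases of this group gpx4a, the other GPX4 copy, had a baseMean of 744 and was 2.89-fold higher in torpor (log2 1.53, SE 0.41, adjusted p = 0.0061), beside the 2.29-fold difference of gpx4b. gpx1a, a copy of the main cellular glutathione peroxidase, had a baseMean of 37.1 and differed by 1.44 (SE 0.52, adjusted p = 0.065). Its partner gpx1b, at a baseMean of 8.04, had a 95% interval from -4.45 to 0.26 (adjusted p = 0.32). glrx2, another glutaredoxin, differed by 1.51 (SE 0.39, adjusted p = 0.0037, baseMean 87.7), and sod3b, a secreted superoxide dismutase, by 1.58 (SE 0.61, adjusted p = 0.090, baseMean 26.9). The mu-class transferases gstm.1, gstm.2 and gstm.3, which lie side by side and may share reads, were at 0.21, -0.47 and 2.24, and none was called. The transferase gstr, with a baseMean of 2120, was at 0.15 (SE 0.30) and msrb1a, with a baseMean of 982, at 0.38 (SE 0.28). Of the 18 copies with baseMean of at least 10, 14 lay above 0 and 4 below. Of all such genes of other homology types, 1771 lay above 0 and 2180 below. The copies below 0 were gpx3 (-0.82, SE 0.92), gstm.2 (-0.47, SE 0.98), gsto2 (-0.21, SE 0.52) and txnrd2.2 (-0.42, SE 0.78). sod3a, txnrd2.1 and the other gene named msrb1b were at 0 in baseMean.

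The step between warm and cold groups was also estimated from all 10 fish, an estimate added after seeing the data. It is the average of Torpor minus Control and Torpor+radiation minus Radiation, and the fish codes are uneven in both pairs. At an adjusted p of at most 0.1, 10 of 23 members were higher and 0 lower, and 17.1% of all genes were called higher and 12.3% lower. They were glrx3, glrx5, gpx4b, gpx8, prdx4, prdx5, sod1, sod2, txn2 and txnrd3. With the normal distribution replaced by a t distribution, whose 6 degrees of freedom are the 10 fish minus the 4 groups, the test called 3.83% of all genes higher and 4 members, gpx4b at 1.53 (SE 0.16, adjusted p = 0.038), sod1 at 1.01 (SE 0.17, adjusted p = 0.069), sod2 at 1.03 (SE 0.21, adjusted p = 0.082) and glrx5 at 0.95 (SE 0.22, adjusted p = 0.098). In the comparisons of 2 groups each, that distribution called no member, and the calls above rest on a normal distribution. Against Control this was the authors' test. Against Radiation it was the Wald test on recovered means and dispersions, which the authors did not run. The share of all genes that it called in those comparisons is not given here.

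Genes that feed or border on these pathways were called in both directions, in numbers mostly near the shares of all genes. Of 77 one-to-one genes for NADPH supply, the Nrf2 network, haem and iron, selenoproteins, glutathione use and other oxidant handling, 70 were tested against Control. After radiation 0 were called by DESeq2 and 3 had an unadjusted p under 0.05, beside 381 of all 7616 tested genes. In torpor 3 were higher (4.29%) and 3 lower (4.29%), beside 6.63% and 3.83% of all tested genes. The higher ones were txndc12, a thioredoxin-like protein of the endoplasmic reticulum (log2 1.40, SE 0.39), blvra, a biliverdin reductase (1.60, SE 0.53), and selenof, a selenoprotein of the endoplasmic reticulum (0.90, SE 0.30). The lower ones were esd, an esterase that releases glutathione from S-formylglutathione (-1.46, SE 0.35), park7 (-1.01, SE 0.26) and oplah, the 5-oxoprolinase of glutathione turnover (-1.62, SE 0.45). oplah was 126 normalized counts in Control, 122 in Radiation, 40.9 in Torpor and 37.0 in Torpor+radiation, so that both torpor groups were low. Among 33 tested genes of other homology types 2 were higher (6.06%) and 1 lower (3.03%), beside 5.36% and 6.39% of all genes of such types. Called higher were slc3a2b, a subunit of the cystine transporter (1.53, SE 0.41), and me1, a malic enzyme (0.99, SE 0.37). Called lower was txnipb, a thioredoxin-binding protein (-0.94, SE 0.37).

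With torpor and radiation together, 6 of these 70 genes were higher than in Control (8.57%) and 4 lower (5.71%), beside 9.09% and 6.43% of all tested genes. The 4 higher ones with the smallest p were txndc12, txndc5, selenof and the iron exporter slc40a1, between 0.86 and 1.49 on the log2 scale. The lower ones were oplah (-1.77, SE 0.42), esd (-1.33, SE 0.32), the mitochondrial malic enzyme me3 (-0.80, SE 0.26) and mafk, a small Maf protein that pairs with Nrf2, which fell from 20.2 to 1.88 normalized counts, a level under the floor of 3. Against Radiation, 4 of 66 were higher (6.06%), namely txndc5, selenof, txndc12 and blvra, and 9 lower (13.6%), beside 9.15% and 6.98% of all genes. The 4 lower ones with the smallest p were oplah (-1.72, SE 0.38), esd (-1.21, SE 0.28), romo1 (-0.74, SE 0.20) and clic4 (-0.83, SE 0.27). Torpor+radiation against Torpor and the interaction called 0 of 66. By the Wald test 3 and 2 genes had an unadjusted p under 0.05, beside 272 and 317 of all 6504 genes.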

How the data were processed

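The authors checked the poly-A, forward-stranded reads (FastQC), trimmed them (cutadapt), aligned them to GRCz11 (STAR), obtained counts (HTSeq) and tested each group against Control (DESeq2, with versions not given in the sources used here). The 3 deposited tables hold, as signal, baseMean (the mean of size-factor normalized counts over all fish), the log2 fold change and its standard error, as a score the Wald statistic, and the deposited p-value with its Benjamini-Hochberg adjustment. The radiation tables list the 9411 one-to-one genes only.

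Group means and 1 dispersion per gene were solved from these columns with Python 3.11.15, numpy 2.4.6, scipy 1.17.1 and pandas 2.3.3. SEs recalculated from them were 0.996, 1.00 and 0.999 times the deposited ones, as medians. The dispersion had been solved from those same SEs, so values near 1 were largely fixed in advance. They do not test the recovered means or dispersions. A check on simulated data built its fold changes and SEs from the same formulas. It tested the solving step and the contrasts, with changes put into Torpor+radiation alone. It did not test whether the deposited fit follows these formulas. Contrasts between treated groups used a two-sided Wald test, adjusted over 6504 genes with baseMean of at least 10. P-values rest on the deposited fit, since no replicate could be examined. Members and gene lists were chosen with earlier results of these data known. Full values went to members called anywhere, the 5 with the highest baseMean, the smallest torpor p per enzyme class and members with an unadjusted p of at most 0.05 after radiation. Other pathway genes were named where called, at most 4 per direction by smallest p. Promoter and protein sequences were not used here.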

Additional observations from a re-analysis of the deposited data

How the results depend on the processing

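The reference distribution mattered most. Under a t distribution with 6 degrees of freedom, the number of members called higher went from 4 to 0 in Torpor against Control (4 members then had an unadjusted p of at most 0.05), from 8 to 0 in Torpor+radiation against Control (7 so), from 7 to 0 against Radiation (7 so) and from 7 to 0 among torpor copies of other homology types, and the 1 lower member was lost. The pathway genes outside the members went to 0 in each direction in these 3 comparisons, from 3 higher and 3 lower, 6 and 4, and 4 and 9. Centred on the median gene, Torpor+radiation against Control called 5 members (glrx5, gpx4b, prdx5, sod1 and sod2) and 7 lower pathway genes. At an adjusted p of at most 0.05, nfe2l2a was lost and 0 members were lower against Radiation. The share of all genes called in these comparisons under these settings is not given here. Without that share, it cannot be said whether these losses were particular to the members. For the average of both torpor pairs, the t distribution took the share of all genes called higher from 17.1% to 3.83%. Members of every homology type gave 11 higher of 45 tested in torpor, beside 708 of all 11529 tested genes. The 11 count gstk1 and both genes named gstk4 separately, although these may share reads. The average of both torpor pairs, added after seeing the data, gave 10 of 23, beside 17.1% of all genes. Another filter, another variance and adjustment over other genes moved no other count by over 1.5 times. Of 780 values of single members under the alternatives, 751 kept their side of the threshold, 29 fell short of it and 0 reversed. Most of the 780 belonged to members not called in the main setting, which could not fall short. The 751 therefore do not measure how stable the calls were. No paired analysis was possible because the tables hold no values per fish, and for the same reason no fish could be left out. The promoter and protein descriptions were not run, since their sequence tables were not used here.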
